A study of Mus musculus with 9 samples.

Results

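The complement system is a cascade of plasma and membrane proteins that marks and lyses targets, and these data show how 8 of its genes, C3, C4b, C1ra, C1s1, Cfb, Serping1, Cd55 and Cd59a, behaved in mouse podocytes after silencing of Usp40, which encodes a deubiquitinase. Podocytes are the epithelial cells that wrap the glomerular capillaries and form part of the kidney's filter. The 8 genes were taken by symbol from the 25655 genes of the deposited table. They were chosen with their levels and their changes in these libraries known, so their changes against the control are given as a description, with no test. All 8 were in the table, 5 of them (C3, C4b, C1ra, Cfb and Cd59a) had enough counts to enter the test, and 3 (C1s1, Serping1 and Cd55) did not.

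The cells were 1 immortalized mouse podocyte line of wild-type genotype. Every group was grown at 33 °C in medium with interferon-γ and then differentiated at 37 °C without it for 10 to 14 days, then transfected with Lipofectamine RNAiMAX. In 3 libraries the cells received a Silencer Select siRNA against Usp40 (s105625, siRNA 1), in 3 they received another (s105626, siRNA 2), and in 3 they received Silencer Select Negative Control No.1 (the control). RNA was taken 48 h after transfection. Replicates are labelled biological, but separate cultures are not stated, so every p-value reflects spread that may be technical.

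Complement is started by the classical route, in which C1q bound to a target activates the proteases C1r and C1s, by the lectin route through MASP proteases, or by the alternative route through factor B. All routes meet at C3, whose cleavage products coat targets and lead on to the membrane attack complex. Soluble inhibitors such as C1 inhibitor and C4b-binding protein, and membrane proteins such as CD55 and CD59, hold the cascade back on host cells. Liver makes most plasma complement, but kidney cells also make components, and uncontrolled complement damages the glomerulus.

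Library depth lay between 9786270 and 13675426 counts, and 11800 genes passed the filter on low counts. Usp40 (ENSMUSG00000005501) had 173, 174 and 196 counts with siRNA 1 and 190, 222 and 295 counts with siRNA 2, against 371, 365 and 503 counts in control libraries. It fell with both, by 1.18 ± 0.12 on the log2 scale with siRNA 1 (SE, n = 3 each, edgeR quasi-likelihood adjusted p = 0.000727) and by 0.88 ± 0.11 with siRNA 2 (adjusted p = 0.00047). The levels with the 2 siRNAs did not differ past the threshold of 0.05 (log2 difference -0.29 ± 0.12, adjusted p = 0.185). Of all genes tested, 1.65% were called with siRNA 1 against the control (0.627% higher, 1.03% lower), 16.2% with siRNA 2 against the control (7.81% higher, 8.4% lower), and 6.74% between the siRNAs (4.25% higher with siRNA 1, 2.49% lower). Of the defining podocyte markers, Nphs1 (nephrin) had 2 counts over all libraries and Ptpro and Tcf21 had none, and the summed level of 11 markers was 1089 to 1224 CPM (counts scaled to library depth) with siRNA 1, 1001 to 1078 CPM with siRNA 2 and 994.2 to 1128 CPM in control libraries.

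With the control siRNA, the podocytes carried transcripts of some complement routes and regulators and not of others. On the length-corrected scale of the deposited table (TPM), Cd59a was the highest of the 8 genes in control libraries at 51.3 ± 6.56 TPM (SD, n = 3). C3 followed at 5.22 ± 0.585 TPM. Cfb had 1.24 ± 0.333, C1ra 1.02 ± 0.565 and C4b 0.545 ± 0.115 TPM in control libraries, and the C1ra libraries overlapped both of its neighbours in this order. Serping1 had 0.0705 ± 0.0616 TPM there, and Cd55 and C1s1 were listed at 0. The order with Cd59a above C3 and C3 above the rest held in every library of every group.

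**Figure D1:**
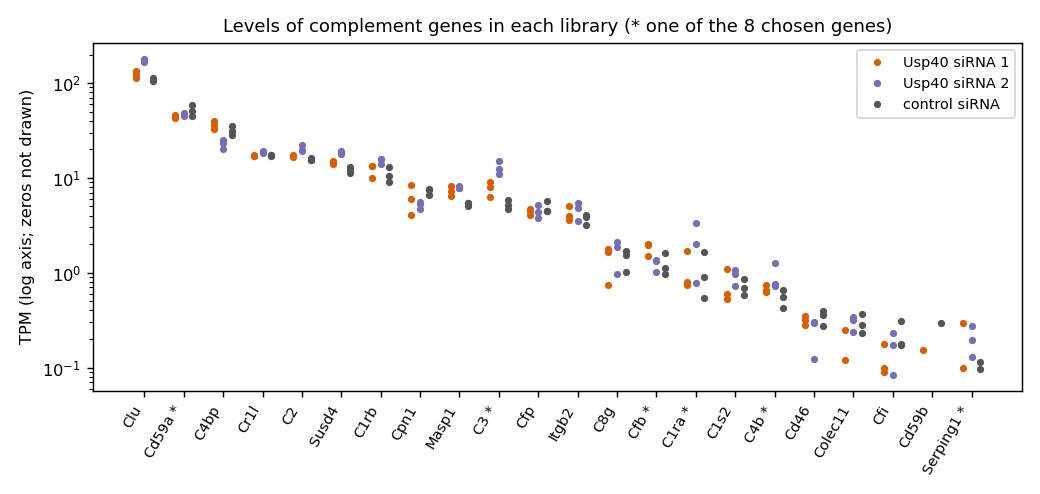
Levels of complement genes in each library in TPM on a log axis, for genes above 0.05 TPM on average in control libraries, ordered by that mean. Points are single libraries of siRNA 1, siRNA 2 and the control. Cd59a lies near the top at 51.3 TPM in control libraries, C3 near the middle at 5.22 TPM, and C4b and Serping1 near the bottom.

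Against the rest of a list of 58 complement genes, 57 of them in the table, Cd59a was exceeded in control libraries only by Clu (clusterin, an inhibitor of the terminal complex), which had 108.3 ± 4.17 TPM. C3 lay close to Masp1, a protease of the lectin route, at 5.30 ± 0.170 TPM. Of the list, 19 genes had enough counts to be tested, 17 had some counts but too few, and 21 had none in any library. The genes with no count included the 3 chains of C1q (C1qa, C1qb, C1qc), the alternative route's protease Cfd, and the terminal components C7, C8a, C8b and C9. A library with 0 counts allows a level of up to 0.219 to 0.307 CPM (3 counts, counting error only).

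C3 is the component on which all routes converge. It lies on chromosome 17 at 57510970 to 57535136 on the minus strand (GRCm39, ENSMUSG00000024164). Its promoter is shown because C3 is the gene of the 8 whose groups stand apart in all comparisons, next to that of Cd59a, which had the highest level of the 8. Both are from RefSeq's GRCm38.p6 table and cover 250 bases before to 50 bases after the start of the gene. Each matched the GRCm39 sequence of its gene's own chromosome exactly and once, and other chromosomes were not searched for it. The C3 window is chr17:57535087-57535386 on the minus strand and the Cd59a window is chr2:103925896-103926195 on the plus strand, and capitals mark motifs found by letter search.
C3: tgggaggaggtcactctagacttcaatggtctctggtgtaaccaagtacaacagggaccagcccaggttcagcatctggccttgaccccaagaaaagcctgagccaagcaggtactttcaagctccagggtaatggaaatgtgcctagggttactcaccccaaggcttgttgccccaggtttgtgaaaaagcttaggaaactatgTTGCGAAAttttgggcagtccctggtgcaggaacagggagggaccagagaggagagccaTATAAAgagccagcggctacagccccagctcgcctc
Cd59a: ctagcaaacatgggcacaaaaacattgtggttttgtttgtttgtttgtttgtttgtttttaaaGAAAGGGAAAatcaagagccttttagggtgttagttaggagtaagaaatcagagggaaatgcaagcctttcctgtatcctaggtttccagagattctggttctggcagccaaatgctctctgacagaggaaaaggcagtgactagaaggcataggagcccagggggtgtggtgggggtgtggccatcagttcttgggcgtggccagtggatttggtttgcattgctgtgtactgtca
In the C3 window the capitals are a C/EBP match (TTGCNNAA, sense, beginning 45 bases before the start) and a TATAAA match (beginning 14 bases after the listed start). In the Cd59a window they are a match to the interferon-stimulated response element, searched as TTTC, any pair of bases and TTTC (antisense, beginning 187 bases before the start). Also searched were an NF-kB motif (GGGA, any pair of bases and TTCC) and a STAT motif (TTCNNNGAA), each on both strands, and these letters were not in either window. Of 32851 promoters of the same length, 10.8% hold the C/EBP motif, 13.6% TATAAA, 3.44% the interferon-stimulated element, 1.47% the NF-kB motif and 8.30% the STAT motif. By symbol, 5 of the 8 genes matched that table, and C4b, Cfb and Serping1 did not.

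C3 was higher with both siRNAs, and by more with siRNA 2. It had 210, 207 and 162 counts with siRNA 1 and 298, 290 and 347 counts with siRNA 2, against 139, 105 and 153 counts in control libraries. Scaled for depth, these were 17.8, 18.5 and 13.9 CPM with siRNA 1, 30.0, 22.6 and 24.9 CPM with siRNA 2 and 11.9, 9.72 and 12.4 CPM in control libraries. All siRNA 1 libraries lay above all control libraries, as for 7.94% of all genes. All siRNA 2 libraries lay above all siRNA 1 libraries, and so above all control libraries, as for 19.5% of all genes against the control. The fold change against the control was 1.47 with siRNA 1 (log2 0.56 ± 0.15, SE) and 2.26 with siRNA 2 (log2 1.18 ± 0.14). Leaving out a library in turn gave log2 values of 0.46 to 0.67 with siRNA 1 and 1.06 to 1.26 with siRNA 2. Both comparisons share the control libraries. Very little of the C3 transcript sequence is shared with other genes (4.27% of its distinct 36-base stretches, the read length).

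Between the siRNAs, C3 averaged 16.8 ± 2.48 CPM with siRNA 1 and 25.8 ± 3.83 CPM with siRNA 2 (SD, n = 3 each), a log2 difference of -0.62 ± 0.14 (SE). The genes were chosen with the changes of both siRNAs known, so this difference is also given with no test. All 3 libraries of siRNA 1 lay below all 3 of siRNA 2, as they did for 15.3% of all genes. Leaving out a library in turn gave differences of -0.71 to -0.50. Usp40 averaged 15.7 CPM with siRNA 1 and 19.2 CPM with siRNA 2. Whether its level bears on the C3 difference was not tested.

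**Figure D2:**
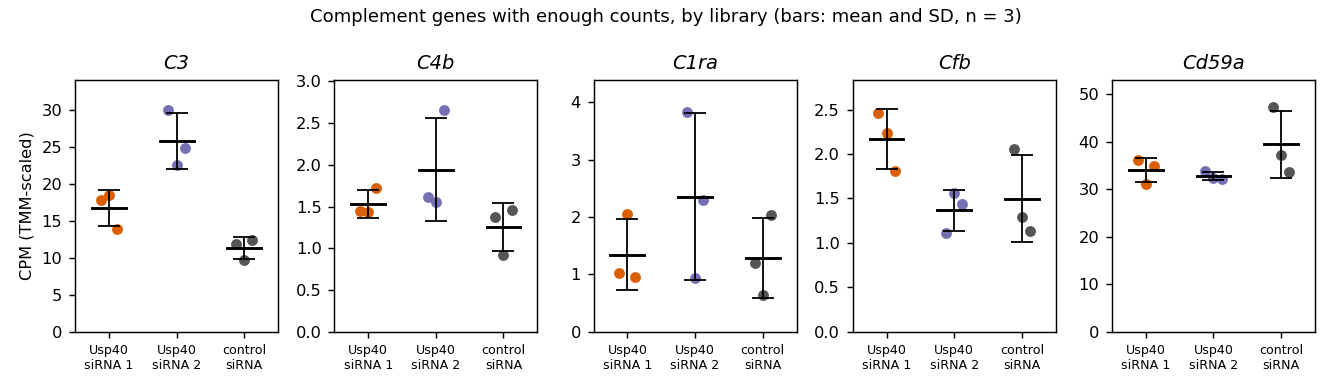
CPM of the 5 complement genes with enough counts, by library, with siRNA 1, siRNA 2 and the control from left to right. Points are libraries, and bars are the mean and SD of 3. C3 libraries lie at 13.9 to 18.5 CPM with siRNA 1, 22.6 to 30.0 CPM with siRNA 2 and 9.72 to 12.4 CPM with the control, and the groups of the other 4 genes overlap except C4b with siRNA 2 against the control and Cfb with siRNA 1 against siRNA 2.

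Of the classical route, C4b, C1ra, C1s1 and C1s2 were low, while C2, which encodes the protease of the classical C3 convertase, and C1rb stood above C3 in control libraries, at 15.7 and 10.9 TPM. C4b, which encodes the C4 protein that C1s cleaves on the way to the C3 convertase, lies on chromosome 17 at 34947354 to 34962856 on the minus strand. It had 17, 16 and 20 counts with siRNA 1 and 16, 20 and 37 counts with siRNA 2, against 16, 10 and 18 counts in control libraries. The siRNA 1 and control libraries overlapped in CPM. The siRNA 2 libraries (1.56 to 2.66 CPM) lay just above the control libraries (0.925 to 1.46 CPM), as for 19.5% of all genes. The log2 changes were 0.28 ± 0.30 with siRNA 1 and 0.64 ± 0.29 with siRNA 2, and the siRNA 2 value was 0.32 without siRNA 2 replicate 3. A share of 41.3% of its 36-base stretches also occurs in other genes, mostly in the near-identical C4a. The deposited table has no entry under the symbol C4a, so the C4b value is uncertain.

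C1ra encodes the protease C1r, which activates C1s. It lies on chromosome 6 at 124489364 to 124500402 on the plus strand and had 12, 23 and 11 counts with siRNA 1, 38, 12 and 32 counts with siRNA 2 and 14, 7 and 25 counts in control libraries. The groups overlapped, with log2 changes of 0.02 ± 0.56 with siRNA 1 and 0.79 ± 0.51 with siRNA 2. With siRNA 1 the value ran from -0.42 without siRNA 1 replicate 2 to 0.51 without control replicate 3, and with siRNA 2 from 0.31 without siRNA 2 replicate 1 to 1.28 without control replicate 3. Its paralogue C1rb, which shares 49.2% of the 36-base stretches of C1ra, had more counts, at 164, 110 and 162 with siRNA 1, 147, 198 and 184 with siRNA 2 and 167, 97 and 129 in control libraries. Since reads can be split between them, both values are uncertain. C1s1, the gene of the protease C1s, had 1 count in all 9 libraries together, in siRNA 2 replicate 2, while its paralogue C1s2 had 7 to 13 counts with siRNA 1, 10 to 14 with siRNA 2 and 8 to 12 in control libraries.

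Cfb encodes factor B, the protease of the alternative C3 convertase, and is the 1 tested member whose log2 changes with the 2 siRNAs had opposite signs. It lies on chromosome 17 at 35075350 to 35081494 on the minus strand. It had 29, 25 and 21 counts with siRNA 1 and 11, 20 and 20 counts with siRNA 2, against 24, 14 and 14 counts in control libraries. Its log2 change was 0.53 ± 0.27 with siRNA 1 and -0.11 ± 0.29 with siRNA 2, with overlap between each siRNA and the control. Control replicate 1 was the highest of the control libraries, and without it these values were 0.83 and 0.19. The siRNA 1 libraries (1.81 to 2.46 CPM) lay above the siRNA 2 libraries (1.11 to 1.56 CPM), as for 15.6% of all genes, a log2 difference of 0.64 ± 0.27. Much of its sequence (59.6% of the 36-base stretches) lies also in Gm20547, an entry on the same strand that spans parts of C2 and Cfb and had 16 counts, so the Cfb counts are uncertain.

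The 3 regulators among the 8 genes differed in level far more than in change. Cd59a encodes CD59, the membrane protein that blocks the last step of the attack complex, and lies on chromosome 2 at 103926146 to 103945699 on the plus strand. It had 425, 348 and 407 counts with siRNA 1 and 336, 417 and 449 counts with siRNA 2, against 554, 403 and 415 counts in control libraries. Its levels were 34.1 ± 2.60 CPM with siRNA 1, 32.9 ± 0.885 CPM with siRNA 2 and 39.5 ± 7.12 CPM in control libraries (SD, n = 3 each), with overlapping groups and log2 changes of -0.21 ± 0.12 and -0.27 ± 0.12 for siRNA 1 and siRNA 2. Control replicate 1 was the highest library, and without it the changes were -0.06 with siRNA 1 and -0.11 with siRNA 2, while without control replicate 3 they were -0.32 and -0.37. Between the siRNAs the log2 difference was 0.05 ± 0.12. Its paralogue Cd59b had 3 counts in all.

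Serping1 encodes C1 inhibitor, which inactivates C1r, C1s and the MASP proteases, and lies on chromosome 2 at 84595731 to 84605788 on the minus strand. It had 3, 0 and 1 counts with siRNA 1 and 1, 2 and 3 counts with siRNA 2, against 0, 1 and 1 counts in control libraries. Cd55 encodes CD55 (decay-accelerating factor), which breaks up C3 convertases on host cells, and lies on chromosome 1 at 130366764 to 130390481 on the minus strand. It had 1 count with siRNA 1, 1 count with siRNA 2 and none in control libraries, and its paralogue Cd55b had none. No difference in Serping1, Cd55 or C1s1 was detectable at this depth.

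Over the 5 tested members, 0 were called with siRNA 1 by edgeR (1 at an unadjusted p under 0.05, 1 called by DESeq2 and 0 by limma-voom), where 1.65% of all genes were called, 0.627% higher and 1.03% lower. With siRNA 2, C3 alone was called by each of these tools, where 16.2% of all genes were called, 7.81% higher and 8.4% lower. These counts come from comparisons that chose the genes, so nothing is read from them. The list that holds the 14 other tested complement genes was also chosen with earlier results of these data known, so their share is a description too. With siRNA 1, 1 of the 14 rose (Masp1) and none fell. With siRNA 2, 4 rose (among them Masp1, Clu and Susd4), C4bp fell and 9 did not pass, so 35.7% were called beside 16.2% of all genes, and their median log2 change was 0.22 beside -0.01 over all genes. In bulk RNA, fewer cells of a type and less RNA per cell cannot be told apart.

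**Figure D3:**
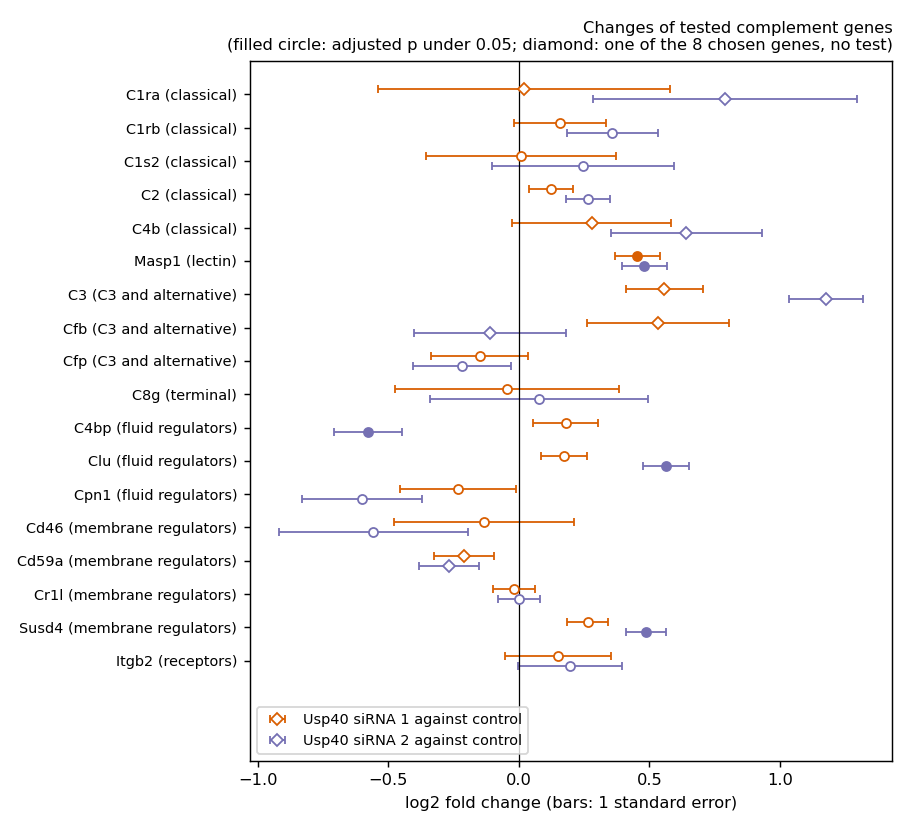
The log2 fold change (x axis, bars 1 standard error) of tested complement genes, grouped by role, with siRNA 1 and siRNA 2 against the shared control. Diamonds are members of the chosen set, drawn without a test, and filled circles are other genes with an adjusted p under 0.05. C3 with siRNA 2 lies farthest to the right at 1.18, and C4bp is filled on the left with siRNA 2 at -0.58.

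Masp1 (ENSMUSG00000022887), whose product starts the lectin route, was the 1 complement gene outside the chosen set that rose with both siRNAs. It had 314, 316 and 277 counts with siRNA 1 and 256, 347 and 380 counts with siRNA 2, against 230, 201 and 236 counts in control libraries. Its CPM was above all control libraries in all 6 siRNA libraries. Taken alone, this held for 7.94% of all genes with siRNA 1 and 19.5% with siRNA 2, and the joint share was not computed. The log2 changes were 0.45 ± 0.09 with siRNA 1 (edgeR adjusted p = 0.0217) and 0.48 ± 0.09 with siRNA 2 (adjusted p = 0.00382). The call with siRNA 1 was lost without siRNA 1 replicate 1 (adjusted p = 0.0655), siRNA 1 replicate 2 (0.0922), control replicate 2 (0.0989) or control replicate 3 (0.0564), and in a fit of only those groups (0.110). Masp1 overlaps Rtp4 on the other strand by 525 bases. Whether counting used the strand is not stated, so reads from Masp1 and Rtp4 cannot be told apart there, and Rtp4 had log2 changes of 0.44 ± 0.13 with siRNA 1 and 0.28 ± 0.13 with siRNA 2, neither past the threshold (adjusted p = 0.158 and 0.153).

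Among fluid-phase regulators, Clu rose with siRNA 2 and C4bp fell. Clu (ENSMUSG00000022037) had 1758, 1420 and 1446 counts with siRNA 1 and 1808, 2254 and 2339 counts with siRNA 2, against 1534, 1215 and 1375 counts in control libraries. It rose with siRNA 2 (log2 0.56 ± 0.09, adjusted p = 0.00199) and did not pass with siRNA 1 (0.17 ± 0.09, adjusted p = 0.428). It was lower with siRNA 1 than with siRNA 2 (log2 difference -0.39 ± 0.09, adjusted p = 0.0200), a call lost without siRNA 1 replicate 2 (adjusted p = 0.0526), siRNA 1 replicate 3 (0.117) or siRNA 2 replicates 1 (0.0932), 2 (0.0763) or 3 (0.0587).

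C4bp (ENSMUSG00000026405), encoding C4b-binding protein, which helps to destroy C4b, had 618, 493 and 499 counts with siRNA 1 and 298, 371 and 334 counts with siRNA 2, against 569, 416 and 444 counts in control libraries. Scaled for depth, all siRNA 2 libraries lay below all control libraries, as for 19.1% of all genes. They also lay below all siRNA 1 libraries, as for 15.6%. The levels were 27.6 ± 3.20 CPM with siRNA 2, 46.5 ± 5.21 CPM with siRNA 1 and 41.1 ± 6.72 CPM in control libraries. It fell by 0.58 ± 0.13 on the log2 scale with siRNA 2 (adjusted p = 0.0134, lost without siRNA 2 replicate 3 at 0.0745) and did not pass with siRNA 1 (0.18 ± 0.13, adjusted p = 0.580). The difference between the siRNAs, 0.76 ± 0.13 (adjusted p = 0.00406), was opposite in sign to that of C3 and was called under all 16 alternatives.

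Susd4 (ENSMUSG00000038576), a membrane protein with complement control domains, averaged 23.8 ± 0.674 CPM with siRNA 1 and 27.8 ± 0.785 CPM with siRNA 2, against 19.8 ± 1.06 CPM in control libraries (SD, n = 3 each). Its groups did not overlap, and all siRNA 1 libraries lay below all siRNA 2 libraries, as for 15.3% of all genes. It rose with siRNA 2 (log2 0.49 ± 0.08, adjusted p = 0.00217) and did not pass with siRNA 1 (0.26 ± 0.08, adjusted p = 0.159). Of the 14 tested complement genes outside the chosen set, 4 lay above all control libraries with siRNA 1, as did 7.94% of all genes, and 5 did with siRNA 2, as did 19.5%. None lay below all control libraries with siRNA 1, as did 8.65% of all genes, and C4bp and Cpn1 did with siRNA 2, as did 19.1%.

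**Figure D4:**
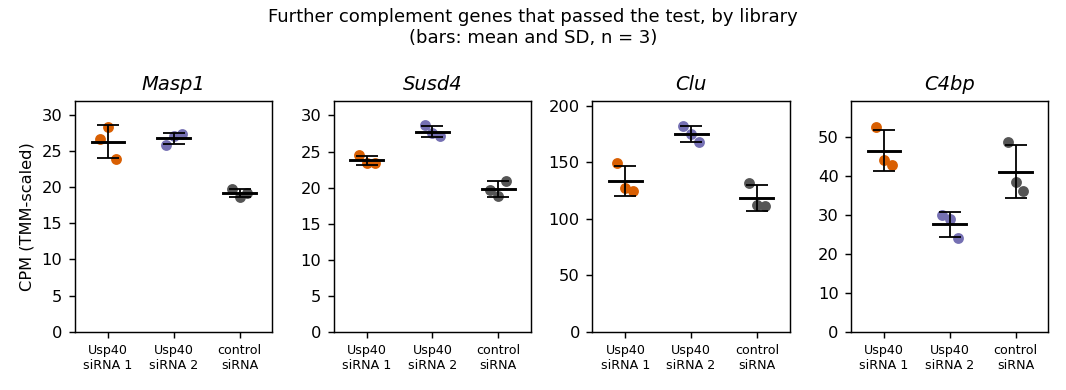
CPM of Masp1, Susd4, Clu and C4bp, further complement genes that passed the test against the control, by library, with siRNA 1, siRNA 2 and the control from left to right. Points are libraries, and bars are the mean and SD of 3. Masp1 and Susd4 libraries of both siRNAs lie above the control libraries. Taken alone, this held for 7.94% of all genes with siRNA 1 and 19.5% with siRNA 2. C4bp is lowest with siRNA 2 at 27.6 CPM.

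Genes of pathways known to drive complement transcription, and acute phase genes, were taken from a list of 33, of which 27 were tested. The list also holds inhibitors of these pathways, such as Nfkbia, Tnfaip3 and Socs3. With siRNA 1, 1 rose (Cp), and with siRNA 2, Cp and Rela rose and Ifngr1 and Ifngr2 fell, so 14.8% were called beside 16.2% of all genes. Cp encodes ceruloplasmin, a copper-carrying acute phase protein, and averaged 128.7 ± 5.56 CPM with siRNA 1 and 158.3 ± 1.62 CPM with siRNA 2, against 105.4 ± 2.70 CPM in control libraries. Its log2 changes were 0.29 ± 0.06 with siRNA 1 (adjusted p = 0.0399, lost in 12 of 16 alternatives) and 0.59 ± 0.06 with siRNA 2 (adjusted p = 0.000148). Cp overlaps Hps3 on the other strand by 13201 bases, so its counts are uncertain without a stated strand setting, and Hps3 was not called in any of the 3 comparisons.

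Ifngr1 and Ifngr2 encode the interferon-γ receptor chains. Ifngr1 fell by 0.29 ± 0.06 on the log2 scale with siRNA 2 (adjusted p = 0.00947) and Ifngr2 by 0.23 ± 0.07 (adjusted p = 0.0385). The Ifngr1 call was lost without siRNA 2 replicate 3 (adjusted p = 0.0604), and the Ifngr2 call in 7 of 16 alternatives. Rela, an NF-kB subunit, rose with siRNA 2 by 0.21 ± 0.06 on the log2 scale (adjusted p = 0.0416, lost in 9 of 16 alternatives). Between the siRNAs, Stat3, the transcription factor downstream of interleukin 6, averaged 121.4 ± 6.92 CPM with siRNA 1 and 181.6 ± 10.0 CPM with siRNA 2, a log2 difference of -0.58 ± 0.08 (adjusted p = 0.000921). Control libraries averaged 154.7 ± 13.3 CPM of Stat3. Against them its log2 changes were -0.35 ± 0.08 with siRNA 1 (adjusted p = 0.0523) and 0.23 ± 0.08 with siRNA 2 (adjusted p = 0.0653). Neither passed by edgeR, while DESeq2 called both. Between the siRNAs Cp differed the same way as Stat3 by -0.30 ± 0.06 (adjusted p = 0.0122, lost in 4 of 16). Ifngr1 was higher with siRNA 1 than with siRNA 2 by 0.24 ± 0.06 (adjusted p = 0.0357, lost in 7 of 16). Il6 and Saa3 had no count in any library, and Irf1, Nfkb1 and Cebpb were not called in any comparison.

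Genes whose pattern over the 9 libraries was most like that of C3 were found by Pearson's r of log2 CPM, a description that includes the differences between groups. They were Rtn4rl1 (r = 0.99), Dkk3 (0.98), Lrrc8c (0.98), Cp (0.97) and Nod1 (0.97). Rtn4rl1 averaged 4.17 ± 0.632 CPM with siRNA 1 and 6.47 ± 1.12 CPM with siRNA 2, against 2.57 ± 0.470 CPM in control libraries (SD, n = 3 each). By rank correlation 4 of these 5 stayed among the top 5, counting ties, and by the deposited TPM 3 did, a measure chosen after seeing the data. Of the complement genes, Susd4 (r = 0.97) and Clu (0.91) were most like C3, C4b (0.66) and C1ra (0.65) were less so, and Cfb (-0.11), Cd59a (-0.56) and C4bp (-0.59) were unlike it. With group means taken out, r with C3 was 0.67 for Susd4 and 0.43 for Clu.

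Markers of other cell types were set beside these values. The summed level of 10 leukocyte markers was 92.3 to 95.7 CPM with siRNA 1, 76.9 to 84.6 CPM with siRNA 2 and 89.9 to 99.96 CPM in control libraries, with Adgre1 and Tyrobp at 0 counts in all libraries. Of its 4 tested genes, Ptprc (CD45) fell with siRNA 2 (log2 -1.21 ± 0.24, adjusted p = 0.00701), as did Csf1r (-0.34 ± 0.09, adjusted p = 0.0262), while Cd68 (0.48 ± 0.19, adjusted p = 0.0974) and Cd14 (-0.17 ± 0.13, adjusted p = 0.369) did not pass. With siRNA 1, Ptprc (0.46 ± 0.20, adjusted p = 0.330) and Cd68 (0.41 ± 0.19, adjusted p = 0.362) did not pass either. The summed level of 5 tubular markers, mostly Lrp2, was 86.0 to 127.3 CPM with siRNA 1, 122.3 to 169.5 CPM with siRNA 2 and 75.8 to 112.9 CPM in control libraries. The summed level of 4 mesangial markers was 47.2 to 50.6 CPM with siRNA 1, 54.4 to 62.9 CPM with siRNA 2 and 45.1 to 52.3 CPM in control libraries, and that of 5 endothelial markers was under 1 CPM in every library. All siRNA 2 libraries had a higher mesangial sum and a lower leukocyte sum than all other libraries. Their tubular sums lay above those of all control libraries and overlapped those of siRNA 1. With siRNA 2, Lrp2 had a log2 change of 0.58 ± 0.18 and did not pass (adjusted p = 0.05001). Of the mesangial genes, Pdgfrb rose with siRNA 2 (0.44 ± 0.10, adjusted p = 0.0131), while Gata3 and Des did not pass. The part of these marker genes in the values of C3, C4bp and the other complement genes was not tested.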

How the data were processed

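Immortalized mouse podocytes were compared 48 h after transfection in 3 groups of 3 libraries. Per the labels, poly(A) RNA was made into libraries described as strand-specific, with 12 PCR cycles, and sequenced as pairs of 36 bp reads in batch 1. Reads were trimmed and filtered in CLC Genomics Workbench 23.02, per the labels' protocols, and DESeq2 and GRCm39 are named in the submitters' processing notes. Not given in the sources used here are DESeq2's role and version, the annotation release, the aligner settings and the strand setting of counting. The deposited table holds, per its headers, the authors' total gene read counts and TPM per library. Here the deposited counts were tested, and TPM was used only for levels between genes.

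The 8 genes and the lists were chosen with earlier results of these data known. The low-count filter was edgeR's filterByExpr (minimum count 10), which kept 11800 genes and dropped 13855. The test was edgeR 4.0.16's quasi-likelihood test (robust, TMM scaling, R 4.3.3) fitted to the 9 libraries together with no term but group, with Benjamini-Hochberg adjustment over all tested genes and a call at an adjusted p under 0.05. The pipeline was tested on simulated data. CPM uses TMM-scaled library sizes, and log2 CPM for likeness to C3 uses a prior count of 2. The biological coefficient of variation was 8.56%. No library repeated another (replicate pairs differed with a chi-square of 3.26 to 19.1 per degree of freedom). Unless stated otherwise, fold changes carry a standard error, and counting floors cover counting error only. For edgeR this standard error was derived from the test, as the absolute log2 change over the square root of its F statistic. Named genes were the 8 genes, Usp40, other complement and regulator-list genes that were called, near-identical copies, and the 5 tested genes most like C3. Some listed genes are not reported here, though counts over a list include them. Marker genes, overlapping neighbours, C2 and Cpn1 were named after their values were seen. Alternatives were DESeq2 1.42.0, limma-voom (limma 3.58.1), other size factors and filters, a replicate block, fits of only the groups compared, and leaving out each library. Shared sequence was found by matching every 36-base stretch of a gene's GENCODE vM39 transcripts to those of other genes.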

Additional observations from a re-analysis of the deposited data

Results flagged for a closer look

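6 genes of the lists, which were chosen with earlier results of these data known, were flagged by a call when siRNA 1 was set against siRNA 2 directly. The log2 differences, siRNA 1 minus siRNA 2, were -0.62 for C3, 0.76 for C4bp, -0.39 for Clu, -0.58 for Stat3, -0.30 for Cp and 0.24 for Ifngr1. Usp40 differed by -0.29 in the same comparison and did not pass its threshold. The call that flagged C3 was lost in 3 of 16 alternatives, and nothing is read from it. For C3 the difference is a description, since the gene was chosen with the changes of both siRNAs known.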

How the results depend on the processing

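No called value changed sign under the alternatives tried, while the Cfb change with siRNA 2 against the control, not called, was 0.19 without control replicate 1 and -0.11 with all libraries, and that of C1ra with siRNA 1, 0.02 with all libraries, ran from -0.42 to 0.51. The number of genes called with siRNA 1 against the control was 195, and it was 37 in a fit of only the groups compared and 36 to 234 with each library left out in turn. With siRNA 2 against the control it was 1913, with 636 to 2608 over libraries left out. Between the siRNAs it was 795, with 1284 in a fit of only the groups compared and 361 to 1335 over libraries left out. Of the 19 complement genes, 1 was called with siRNA 1 by edgeR, 2 by DESeq2, 0 in a fit of only the groups compared (4 at an unadjusted p under 0.05), and 0 to 1 with libraries left out (at least 4 unadjusted). With siRNA 2, 6 were called, and 5 to 7 with libraries left out. Between the siRNAs 3 were called, and 1 to 3 with libraries left out. The C3 difference between the siRNAs ran from -0.71 to -0.50 over libraries left out. Whether replicate numbers pair the libraries is unclear. Same-numbered pairs correlated at -0.14 to 0.43 (4 of 9 over 0.1), and other pairs at -0.43 to 0.38 (5 of 18 over 0.1). With a replicate block the fit called 226, 2295 and 927 genes in the 3 comparisons in the order above, and 1, 7 and 3 complement genes, and Cp with siRNA 1 lost its call (adjusted p = 0.0561). C2 with siRNA 2 missed the threshold at 0.0507 and was called under DESeq2 size factors and the replicate block. Its counts are uncertain because of the overlap with Zbtb12 and the sequence shared with Gm20547. Depth limits Serping1, Cd55 and C1s1, which had 12, 2 and 1 counts over all libraries.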
